A study of Mus musculus with 5 samples.

Results

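The S100 genes described here are 10 members of the S100 family of small calcium-binding proteins, S100a8, S100a9, S100a4, S100a6, S100a10, S100a11, S100a13, S100a14, S100a16 and S100g, taken by gene symbol from the 24347 symbols of the tables. The tables hold 17 S100 symbols, and the 7 outside the members are given at the end of the member results. The members were chosen by the levels these same libraries show, with the difference between the populations already known, so their differences are descriptions. The libraries were 2 pools of keratin 6a positive (Krt6a+) cells, numbered 2 and 3 and labelled as precancerous stem cells, and 3 pools of WAP+ cells, named for whey acidic protein, a milk protein, and numbered 1 to 3. The tissue was the precancerous lesion of the mammary gland in MMTV-Wnt-1 transgenic mice of mixed FVB, SJL and C57BL/6 background, in which the MMTV promoter drives Wnt-1 in the mammary epithelium. In this model lesions begin by 4 to 6 weeks of age, per the labels, which give no age at sampling and no treatment, and both populations carry the transgene, so neither is a normal control. Each library was amplified from 1 small pool of cells sorted with an antibody to TVA. How TVA came to mark either population, and whether pools were from separate animals, is not stated in the labels.

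S100 proteins are short polypeptides with a pair of EF-hand loops, and calcium binding exposes a surface that docks onto target proteins. Most act inside the cell, where S100a6, S100a10 and S100a11 bind annexins and the cytoskeleton. S100a8 and S100a9 form the heterodimer calprotectin, which sequesters zinc and manganese and acts as an alarmin when secreted, and they are best known from neutrophils and from stressed epithelia. S100g, calbindin D9k, carries calcium across epithelial cells. In the mammary gland, calcium handling accompanies milk secretion.

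Levels are the deposited FPKM, a fragment number corrected for transcript length and for sequencing depth. Means and log2 differences use FPKM divided by a scaling factor per library. The libraries held 8112 to 8900 genes at FPKM 1 or more. Read totals were not given, and the widths of the deposited FPKM intervals, read as counting error alone, corresponded to 2130000 to 2830000 fragments per library. The genes that name the populations followed the labels. Krt6a had FPKM 1380 and 1133 for the 2 Krt6a+ pools and 168, 50 and 120 for the 3 WAP+ pools, and Wap was listed at 0 for the former and had 50.1, 126 and 13.9 for the latter. Other defining genes of mammary epithelium were present too, with Epcam at FPKM 549 and 908 in Krt6a+ libraries and 1108 to 1493 in WAP+ libraries. An exact 0 can be a failed estimate in these tables, since 3 of 24 genes that every cell uses (Eno1, Rpl10, Rpl11) had 0 in every table and 7 of the 24 had 0 in at least 1. Across 9682 tested genes, 67 passed limma's test at an adjusted p of 0.05.

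Of the members, 9 lie on chromosome 3 and S100g lies on the X chromosome. S100a1 to S100a9 form a run of 12 S100 genes over 185 kb of mm10 (chr3:90511034-90695721) with no other symbol of the tables between them, and S100a11 and S100a10 follow after a gap of 2.82 Mb that holds 56 other symbols. Within the run S100a8 (chr3:90669071-90670034, plus strand) and S100a9 (chr3:90692630-90695721, minus strand) are neighbours, 22595 bp apart, and are transcribed towards each other. S100g (chrX:162961992-162964599, minus strand) lies inside Ctps2, a gene of the opposite strand, and overlaps 0 of its annotated exons. The member transcripts are 392 to 1095 bp long, against a median of 2317 bp in the tables, and the transcripts of S100a8, S100a9 and S100g have 3 exons each.

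The 250 bases before the annotated start are shown for the members that lay farthest apart between the populations, S100a8, S100a9 and S100g, and for S100a6, which was abundant in all libraries. The sequences are from RefSeq on GRCm38.p6, the assembly of mm10, at chr3:90668821-90669070 (plus strand), chr3:90695722-90695971 (minus strand), chrX:162964600-162964849 (minus strand) and chr3:90612644-90612893 (plus strand). Capitals mark matches to the motifs searched.
S100a8: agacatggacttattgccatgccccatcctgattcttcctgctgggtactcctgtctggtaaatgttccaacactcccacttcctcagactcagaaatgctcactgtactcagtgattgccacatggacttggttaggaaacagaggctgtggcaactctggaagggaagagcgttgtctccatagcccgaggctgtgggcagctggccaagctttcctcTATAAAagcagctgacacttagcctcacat
S100a9: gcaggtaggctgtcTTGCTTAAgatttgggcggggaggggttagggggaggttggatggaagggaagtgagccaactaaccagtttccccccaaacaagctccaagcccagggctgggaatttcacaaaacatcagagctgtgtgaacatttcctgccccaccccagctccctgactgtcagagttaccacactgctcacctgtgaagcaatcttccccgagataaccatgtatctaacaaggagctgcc
S100g: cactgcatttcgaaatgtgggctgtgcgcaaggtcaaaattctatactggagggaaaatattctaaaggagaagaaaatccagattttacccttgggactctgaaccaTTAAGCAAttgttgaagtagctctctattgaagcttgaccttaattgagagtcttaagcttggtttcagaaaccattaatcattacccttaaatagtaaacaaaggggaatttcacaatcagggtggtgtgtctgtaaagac
S100a6: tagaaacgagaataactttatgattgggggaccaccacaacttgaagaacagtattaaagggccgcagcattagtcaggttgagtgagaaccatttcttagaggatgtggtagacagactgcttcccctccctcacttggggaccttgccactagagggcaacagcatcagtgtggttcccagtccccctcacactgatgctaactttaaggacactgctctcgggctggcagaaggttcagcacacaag
The search covered TATAAA on the forward strand, and on both strands the letters TTGCNNAA for C/EBP factors, TGANTCA for AP-1, TTCNNNGAA for STAT factors and the NF-kB consensus. S100a8 held TATAAA starting 30 bases before the transcript start, and no other motif. S100a9 held TTGCTTAA at 236 bases and S100g held TTAAGCAA at 142 bases before the start, both matches to the C/EBP letters, and S100a6 held none of the 5 motifs. Of the members not shown, S100a4 held TATAAA at 31 bases, S100a11 held the AP-1 match TGAGTCA at 136 and 38 bases, and S100a13 held none. S100a16 held the AP-1 match TGAATCA at 192 bases, in an entry that does not begin at the start used in the tables. Of all 32851 promoter windows of this length, 7.59% held TATAAA, 9.56% the C/EBP letters, 6.75% the AP-1 letters, 7.02% the STAT letters and 0.356% the NF-kB letters. Promoter entries were found for 8 of the 10 members, and 7 of these began at the start used in the tables. A match describes letters and was not tested as a binding site.

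S100a8 was the member farthest apart between the populations and was among the most abundant transcripts of WAP+ cells. Its FPKM was 2226, 4442 and 4912 in WAP+ pools 1, 2 and 3 but 4.82 and 2.40 in Krt6a+ pools 2 and 3. Every WAP+ library lay far above both Krt6a+ libraries, and the lowest WAP+ value was in library 1. In bulk pools fewer cells of a type and less RNA per cell cannot be told apart. By level S100a8 ranked 25, 11 and 8 among all symbols in the WAP+ libraries and 5309 and 7266 in the Krt6a+ libraries. The scaled mean of the WAP+ pools was 4155 ± 1942 (SD, n = 3) and that of the Krt6a+ pools 3.52 ± 1.98 (SD, n = 2), a log2 difference, Krt6a+ minus WAP+, of -9.78 ± 0.54 (SE). The Krt6a+ values rested on about 5 and 2 fragments by their interval widths, with FPKM intervals of 0.509 to 9.13 and 0 to 5.79. The lower bound of the lowest WAP+ library, 2117, was 232 times the upper bound of the highest Krt6a+ library.

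S100a9, the partner of S100a8 in calprotectin, was present at a far lower level. It had FPKM 10.6, 9.81 and 116 in the WAP+ pools, while both Krt6a+ pools had a listed value of 0. WAP+ library 3 stood about an order of magnitude above the other WAP+ libraries, so that the scaled mean was 51.0 ± 71.0 (SD, n = 3). The WAP+ values corresponded to about 15, 19 and 181 fragments. The level of S100a8 was 211, 453 and 42.3 times that of S100a9 in WAP+ libraries 1, 2 and 3, on the FPKM scale that allows for transcript length. The tables carry a pair of S100a9 transcripts, NM_009114 of 521 bp and NM_001281852 of 524 bp, and all S100a9 signal was assigned to the first.

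Markers of neutrophils, monocytes and macrophages, the cells best known for S100a8 and S100a9, were mostly listed at 0. Of 18 such markers in the tables, 13 were listed at 0 in all 5 libraries, among them the leukocyte antigen Ptprc, the integrin Itgam, the receptor Csf3r, the lysozyme Lyz2 and the granule genes Mpo, Elane, Camp and Ngp. Of the 18, only Cd68, Tyrobp and Csf1r reached FPKM 1 in any library. Cd14, which monocytes and macrophages also carry, was not on this list and is given below with the receptors. It had FPKM 47.1 and 42.2 in the Krt6a+ pools against 306, 392 and 361 in the WAP+ pools. Cd68, a lysosomal protein that epithelial cells also make, had FPKM 6.49 and 17.8 in the Krt6a+ pools against 9.08, 26.4 and 19.5 in the WAP+ pools. Tyrobp had 0.897 and 0.819 against 2.68, 2.04 and 0.841. Csf1r (1.03 in WAP+ library 1), Cxcr2 (at most 0.624) and Itgb2 (at most 0.152) were above 0 in WAP+ libraries only. The part of such cells in the level of S100a8 and S100a9 was not tested. The summed level of the list was 7.39 to 18.6 in Krt6a+ and 13.1 to 29.1 in WAP+ libraries. Lymphocyte markers were lower still, with 7 of 9 at 0 throughout and Cd79a (3.59 in Krt6a+ library 3) and Cd4 (1.43 in WAP+ library 3) above FPKM 1.

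**Figure D1:**
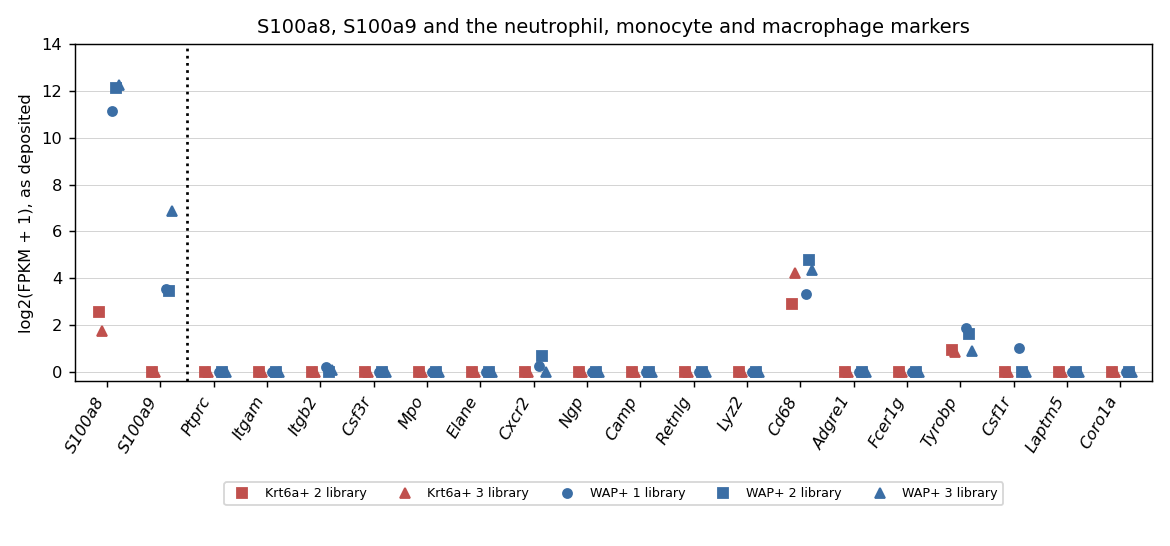
Level of S100a8, S100a9 and 18 neutrophil, monocyte and macrophage markers as log2(FPKM + 1) of the deposited values, 1 point per library (red, Krt6a+; blue, WAP+; shape, library number). S100a8 lay between FPKM 2226 and 4912 in WAP+ libraries, while 13 of the 18 markers were at 0 in all libraries. A listed 0 can be a failed estimate.

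S100g was the member with the opposite pattern. It had FPKM 69.4 in Krt6a+ library 2 and 355 in Krt6a+ library 3 and was listed at 0 in all 3 WAP+ libraries, so no fold is given. Both Krt6a+ libraries were high, though they differed from each other several-fold, with a scaled mean of 193 ± 172 (SD, n = 2). Their intervals, 55.6 to 83.1 and 323 to 387, did not overlap and corresponded to about 101 and 488 fragments. In the WAP+ libraries the deposited interval was also 0 to 0. Ctps2, the gene around S100g, had FPKM 1.58 and 2.30 in the Krt6a+ pools against 2.87, 5.87 and 0.932 in the WAP+ pools, and because the kit does not mark strand its reads could not be told apart by strand. S100g passed the filter on low values only through the Krt6a+ libraries, and S100a9 only through the WAP+ libraries, so a difference in each was built into their selection.

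S100a14, an S100 protein of epithelia, was higher in Krt6a+ libraries and S100a13, which takes part in the release of signal proteins that lack a leader peptide, was lower, both by less than the members above. S100a14 had FPKM 409 and 149 in the Krt6a+ pools against 72.7, 30.0 and 87.8 in the WAP+ pools. The groups did not overlap, but Krt6a+ library 3 lay nearer to WAP+ library 3 than to Krt6a+ library 2. The log2 difference of S100a14 was 1.96 ± 0.63 (SE), from scaled means of 275 ± 202 (SD, n = 2) and 65.8 ± 33.8 (SD, n = 3). It was 1.13 without Krt6a+ library 2 and 2.79 without Krt6a+ library 3. In Krt6a+ library 2 and in WAP+ libraries 2 and 3 all of its signal was assigned to transcript NM_025393. In Krt6a+ library 3 this transcript had 90.2 of FPKM 149, and NM_001163526 and NM_001163525 had 36.3 and 22.3. In WAP+ library 1 NM_025393 had 44.6 and NM_001163526 had 28.2. S100a13 had FPKM 143 and 148 in the Krt6a+ pools against 479, 317 and 269 in the WAP+ pools. The Krt6a+ values of S100a13 were close to each other and below every WAP+ value. Its log2 difference was -1.36 ± 0.34 (SE), from scaled means of 138 ± 10.7 (SD, n = 2) and 359 ± 56.8 (SD, n = 3), and -0.95 with quantile normalization. Of the 24 genes that every cell uses, 20 were tested, and 17 had a negative and 3 a positive log2 difference. Their median was -0.69, beside -0.01 over all genes tested. The part of this shift in the difference of S100a13 was not tested.

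S100a6, S100a10 and S100a11, the most abundant members in both Krt6a+ pools, overlapped between the populations on the scaled values. In WAP+ library 2 S100a8 ranked above all 3 of them, and in WAP+ library 3 above S100a10 and S100a11. S100a6, or calcyclin, had FPKM 5652 and 3879 in the Krt6a+ pools against 3739, 3530 and 6282 in the WAP+ pools, with the highest and the lowest value both in WAP+. Its log2 difference was -0.02 ± 0.46 (SE), with 0.70 under quantile normalization and 0.36 and 0.29 without Krt6a+ library 3 and WAP+ library 3, so no direction is given. S100a10, the p11 subunit that pairs with annexin A2 at the membrane, had FPKM 3517 and 3682 in the Krt6a+ pools against 3966, 3848 and 4336 in the WAP+ pools. The deposited values of S100a10 did not overlap but the scaled values did, and the log2 difference of -0.29 ± 0.35 (SE) became 0.06 with quantile normalization. S100a11, which binds annexin A1, had FPKM 5101 and 3580 in the Krt6a+ pools against 4908, 3039 and 2933 in the WAP+ pools. The log2 difference of S100a11 was 0.16 ± 0.38 (SE), 0.66 with quantile normalization, and -0.19 without Krt6a+ library 2, the library with the highest value. These 3 members ranked between 5 and 20 among all symbols in every library.

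S100a16 and S100a4 also overlapped. S100a16, a widely expressed S100 protein, had FPKM 647 and 587 in the Krt6a+ pools against 541, 574 and 516 in the WAP+ pools. Its log2 difference was 0.06 ± 0.34 (SE) and became 0.65 with quantile normalization. It was -0.11 without Krt6a+ library 2 and -0.08 without WAP+ library 1. S100a4, known from fibroblasts, leukocytes and motile cells, had FPKM 68.7 and 15.2 in the Krt6a+ pools against 23.7, 52.8 and 100 in the WAP+ pools. The low and high values of S100a4 were mixed between the populations, and the log2 difference was -0.73 ± 0.86 (SE), with -1.87 without Krt6a+ library 2 and 0.43 without Krt6a+ library 3. The summed level of fibroblast markers was 57.5 to 212 in Krt6a+ and 8.6 to 84.9 in WAP+ libraries. Most of it was Dcn (FPKM 49.4, 210, 16.3, 8.6 and 67.0 in library order), and Thy1 was at 0 in all libraries. In the same order Col1a1 had 2.44, 0, 0, 0 and 2.33, Col1a2 4.12, 0, 0.352, 0 and 6.66, and Col3a1 1.51, 0, 0, 0 and 6. These collagen genes were highest in Krt6a+ library 2 and WAP+ library 3, as was S100a4. Lum was highest in WAP+ library 3 (2.18) and Pdgfrb in WAP+ library 1 (1.55). Fbln1 (1.83), like Dcn, was highest in Krt6a+ library 3, where S100a4 was lowest. The part of such cells in the level of S100a4 was not tested.

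**Figure D2:**
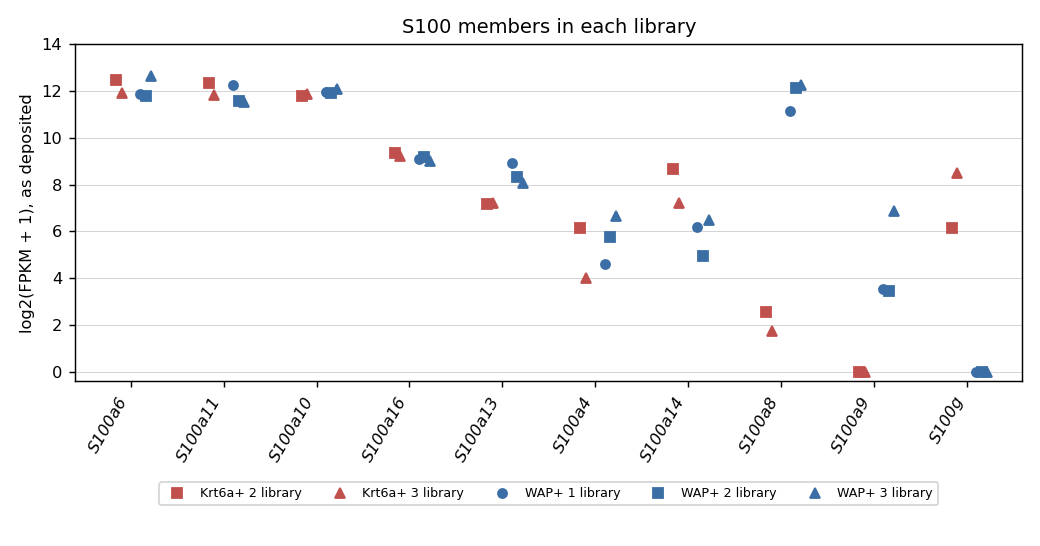
Level of the 10 members as log2(FPKM + 1) of the deposited values, 1 point per library (red, Krt6a+; blue, WAP+; shape, library number). S100a6, S100a11, S100a10 and S100a16 lie together in all libraries, while S100a8 and S100a9 are high only in WAP+ libraries and S100g only in Krt6a+ libraries.

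In the fit over all 9682 genes, 2 of the 10 members passed the threshold, S100g higher and S100a8 lower in Krt6a+ libraries, where 0.692% of all tested genes passed (0.258% higher and 0.434% lower). The other 8 did not pass. The scaled values of the populations did not overlap for 5 members, 2 higher (S100g and S100a14) and 3 lower (S100a8, S100a9 and S100a13), against 34.8% of all tested genes. Since the members were chosen with this contrast known, nothing is read from these counts. The median log2 difference of the 10 members was -0.15, beside -0.01 over all genes tested. Without any 1 WAP+ library S100g did not pass (limma, adjusted p = 0.0901, 0.136 and 0.102), nor with no filter on low values (0.104). Without either Krt6a+ library it was above FPKM 1 in only 1 library and was not tested. The log2 difference of S100a8 ran from -10.26 to -8.81 over the 14 alternative settings. These settings rework the same 5 libraries, so the range is a description too.

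**Figure D3:**
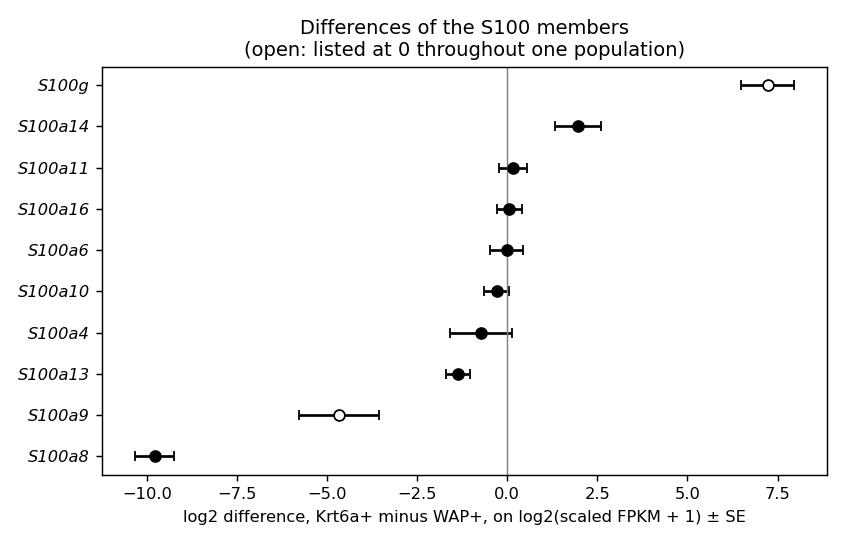
Log2 difference, Krt6a+ minus WAP+, of scaled FPKM with a pseudocount of 1 for each member; bars are the moderated standard error over 2 and 3 libraries. Open points mark S100g and S100a9, listed at 0 throughout 1 population, whose size depends on the pseudocount. The members run from -9.78 for S100a8 to 7.23 for S100g, with 5 of them within 1 unit of 0.

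Summed over the members, the share of all expression overlapped between the populations, while the makeup of the sum did not. The 10 members added up to FPKM 15612 and 12396 in the Krt6a+ pools against 15967, 15843 and 19552 in the WAP+ pools, which was 4.05% and 2.98% against 3.06%, 3.07% and 4.66% of all FPKM. S100a6, S100a10 and S100a11 made up 91.4% and 89.9% of this sum in the Krt6a+ pools against 79.0%, 65.8% and 69.3% in the WAP+ pools. S100a8 made up 13.9%, 28.0% and 25.1% of the sum in the WAP+ pools against 0.0309% and 0.0193% in the Krt6a+ pools. S100g made up 0.444% and 2.86% in Krt6a+ libraries. Each library held 9 of the 10 members above 0, lacking S100a9 in Krt6a+ and S100g in WAP+ libraries.

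S100a1, the gene outside the members with the highest level, is known from muscle and starts 104 bp from S100a13 in the opposite direction. It had FPKM 328 and 384 in the Krt6a+ pools against 879, 870 and 384 in the WAP+ pools (limma, log2 difference -1.02 ± 0.41 SE, adjusted p = 0.254). S100a3, between S100a16 and S100a4, had FPKM 1.99 and 10.8 against 27.1, 19.0 and 24.1 (limma, log2 -2.14 ± 0.63 SE, adjusted p = 0.147). S100a7a, the mouse relative of psoriasin, lies next to S100a8 and had FPKM 149 in Krt6a+ library 2 but 4.24 in Krt6a+ library 3, and 2.94, 0 and 10.1 in WAP+ libraries (limma, adjusted p = 0.377). None of these 3 passed the test over all genes. S100a2 had FPKM 2.04 in Krt6a+ library 3 and was listed at 0 elsewhere, S100b, a marker of glia, did not exceed 0.214, and S100a5 and S100z were listed at 0 in all libraries. The fused S100 genes of the cornified envelope were likewise low. Of 6 in the tables, Hrnr, Rptn, Tchhl1 and Crnn were at 0 throughout, and Tchh had FPKM 12.3 in Krt6a+ library 2 and at most 1.06 elsewhere.

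**Figure D4:**
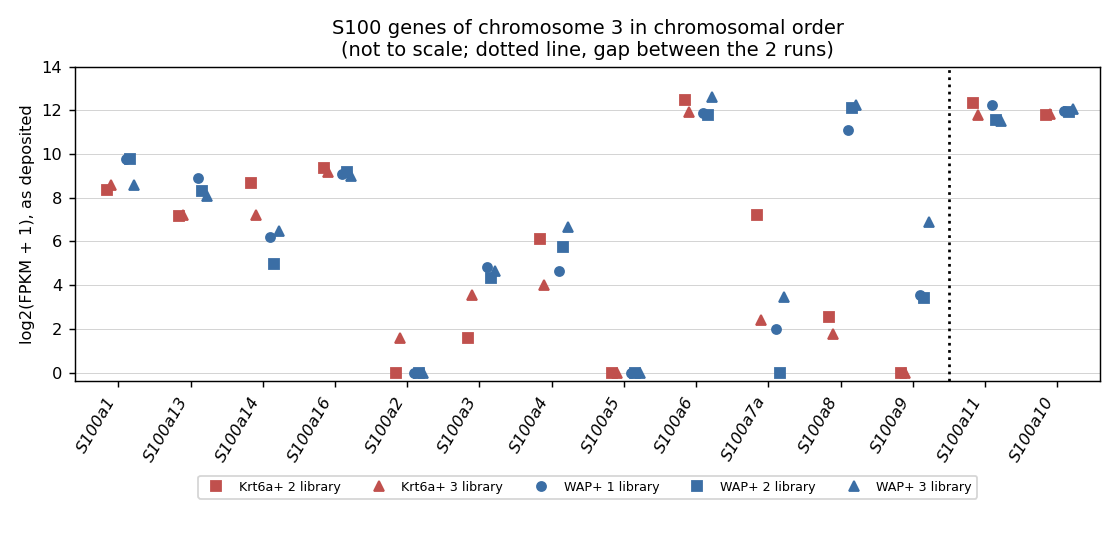
Level of the 14 S100 genes of chromosome 3 as log2(FPKM + 1) of the deposited values, in chromosomal order and not to scale, 1 point per library (red, Krt6a+; blue, WAP+; shape, library number). S100a7a, S100a8 and S100a9 lie side by side, S100a8 being between FPKM 2226 and 4912 in WAP+ libraries and S100a7a at 149 in Krt6a+ library 2.

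The genes with a pattern most like S100a8 by Pearson's r of log2 values over the 5 libraries were Rplp2, a ribosomal stalk protein, Cd14, a receptor of bacterial lipopolysaccharide, and Tmsb10, an actin-binding thymosin, each with r = 0.998. S100a9 had r = 0.894 to S100a8 and ranked 632. Those most like S100g were Amigo3, Plac8 and Cabp4. Plac8 had FPKM 7.53 and 19.9 in Krt6a+ libraries, Amigo3 2.42 and 4.94, and Cabp4 1.12 and 2.01, and all 3 genes were listed at 0 in the WAP+ libraries. Like S100g, these genes passed the filter only through the Krt6a+ libraries. The r values are descriptions over 5 libraries that share the split into 2 groups.

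Among receptors of secreted S100 proteins, Cd14, the co-receptor of TLR4, was higher in WAP+ libraries, where S100a8 was high. Cd14 had FPKM 306, 392 and 361 in the WAP+ pools against 47.1 and 42.2 in the Krt6a+ pools (limma, log2 difference -3.07 ± 0.38 SE, adjusted p = 0.0275). It did not pass without any 1 WAP+ library (adjusted p = 0.0901, 0.170 and 0.147), with no filter (0.116) or with no mean-variance trend (0.0747). Of 10 tested receptor genes 1 was lower and 0 higher in Krt6a+ libraries, with a median log2 difference of -0.32. At an unadjusted limma p under 0.05, 3 were lower and 1 higher. Over all 9682 tested genes, 915 were lower and 742 higher at that threshold. The later list counts at an unadjusted p stand beside the same numbers. Tlr4 itself, the receptor of the S100a8 and S100a9 alarmin, was low, at FPKM 6.75 and 0.553 in the Krt6a+ pools against 2.01, 1.06 and 2.47 in the WAP+ pools. Its partner Ly96 had FPKM 14.0 and 54.1 against 105, 57.9 and 45.9 (limma, adjusted p = 0.287). Ager, which encodes RAGE, was listed at 0 in both Krt6a+ libraries and WAP+ library 3 and had 2.30 and 1.71 in WAP+ libraries 1 and 2. Bsg, a surface receptor of S100a9, was abundant in all libraries, at FPKM 135 and 164 in the Krt6a+ pools against 306, 243 and 235 in the WAP+ pools (limma, log2 -0.91 ± 0.32 SE, adjusted p = 0.198). Emb, also of the receptor list, had 5.90 and 18.6 against 4.07, 1.23 and 2.89, and Fgfr1 28.5 and 30.8 against 15.6, 3.72 and 12.1 (limma, adjusted p = 0.294 and 0.264).

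Of the listed binding partners of S100 proteins, 0 of 23 tested passed (limma, with 2 higher and 3 lower at an unadjusted p under 0.05, median log2 difference -0.10). Levels within the list ran from Syt1, listed at 0 in all libraries, to Anxa2 and Anxa1, its most abundant genes. Anxa2, the partner of S100a10, had FPKM 4498 and 2753 in the Krt6a+ pools against 3105, 1757 and 2414 in the WAP+ pools. Anxa1, the partner of S100a11, had 2259 and 2851 against 2193, 1711 and 2033. Anxa6, a membrane-binding annexin, had the largest moderated statistic of the list, with FPKM 7.76 and 0.0703 in the Krt6a+ pools against 32.6, 44.8 and 32.9 in the WAP+ pools (limma, log2 -3.65 ± 0.87 SE, adjusted p = 0.0982). Its log2 difference was -5.19 without Krt6a+ library 2 and -2.1 without Krt6a+ library 3. Each of these fits left a single Krt6a+ library. Ahnak, the large scaffold bound by S100a10 and annexin A2, had 168 and 153 against 79.8, 50.7 and 71.3 (limma, log2 1.15 ± 0.37 SE, adjusted p = 0.173). Anxa5 had 35.8 and 115 against 231, 136 and 125, and Anxa11 13 and 10.3 against 6.00, 1.42 and 1.17 (limma, adjusted p = 0.198 and 0.232). S100a10 and annexin A2 also bind plasminogen and its activators at the cell surface. Of that system 0 of 7 tested genes passed (limma, with 2 higher and 0 lower at an unadjusted p under 0.05, median 0.24). Plat and Plaur are counted both here and among the binding partners. Serpinb2, an inhibitor of plasminogen activators, had FPKM 2.74 and 45.8 in the Krt6a+ pools, against a listed 0 in all WAP+ pools (limma, adjusted p = 0.125). It passed the filter only through the Krt6a+ libraries, so a difference was built into its selection. The activators had FPKM 23.0 and 6.44 against 8.22, 0.681 and 0.860 (Plau) and 0.109 and 33.2 against 11, 6.71 and 4.24 (Plat; limma, adjusted p = 0.309 and 0.896).

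Among the other EF-hand genes, 1 of 20 tested was higher in Krt6a+ libraries and 0 lower (limma; median log2 difference -0.24), with 3 higher and 5 lower at an unadjusted p under 0.05. The one that passed was Calml3, a calmodulin-like protein of stratified epithelia, with FPKM 29.4 and 14.9 in the Krt6a+ pools against a listed 0 in the WAP+ pools (limma, adjusted p = 0.0448). Like S100g, Calml3 passed the filter only through the Krt6a+ libraries, so a difference was built into its selection. It was not tested without either Krt6a+ library, and its call was lost with a pseudocount of 0.1 (adjusted p = 0.0724), no filter (0.178), no mean-variance trend (0.0524), the replicate number as a block (0.0933) and without any 1 WAP+ library (0.138, 0.202 and 0.174). Efhd2, a calcium-dependent actin binder, had FPKM 106 and 175 against 367, 393 and 418, and Calm2, a calmodulin gene, 107 and 170 against 351, 317 and 199 (limma, adjusted p = 0.0831 and 0.164). Chp1, a cofactor of sodium-proton exchangers, had 71.0 and 26.8 against 17.1, 7.51 and 6.74, and Sdf4, a calcium-binding protein of the Golgi, 62.8 and 59.9 against 32.1, 25.1 and 13.5 (limma, adjusted p = 0.162 and 0.192). Calb1, the larger vitamin D-dependent calbindin, was listed at 0 in all libraries.

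Genes of vitamin D response and epithelial calcium transport, the setting in which S100g is best known, did not pass in 6 of 6 tested genes (limma; 1 higher and 1 lower at an unadjusted p under 0.05; median log2 difference 0.25). Vdr, the vitamin D receptor, had FPKM 36.4 and 42.4 in the Krt6a+ pools against 25.5, 12.4 and 25.2 in the WAP+ pools (limma, log2 0.82 ± 0.47 SE, adjusted p = 0.424). Trpv6, the apical calcium channel that feeds calbindin in the gut, had 3.15 and 2.09 against 0.175, 0 and 0 (limma, log2 1.73 ± 0.55 SE, adjusted p = 0.167). Both Krt6a+ values of Trpv6 lay above all WAP+ values, at levels of a few FPKM. Groups did not overlap in 34.8% of all tested genes. Trpv6 passed the filter only through the Krt6a+ libraries, so a difference was built into its selection. Atp2c2, a Golgi calcium pump of the lactating gland, had 0.912 and 0 against 6.43, 3.81 and 2.31, and its paralog Atp2c1 5.71 and 8.37 against 2.65, 2.57 and 0.582 (limma, adjusted p = 0.215 and 0.327). Likewise, Atp2c2 passed the filter only through the WAP+ libraries. Cyp24a1, the vitamin D target that degrades the hormone, and the channel Trpv5 were listed at 0 in all libraries.

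Cytokines and factors known to act on S100a8 and S100a9 transcription did not pass in 11 of 11 tested genes (limma; 1 higher and 2 lower at an unadjusted p under 0.05; median 0.06). Cebpb, a C/EBP factor, was abundant in both populations, at FPKM 1340 and 2379 in the Krt6a+ pools against 1639, 1081 and 2029 in the WAP+ pools. Its relative Cebpd had 61.0 and 51.4 against 225, 152 and 113, with groups that did not overlap (limma, log2 -1.59 ± 0.38 SE, adjusted p = 0.0982). Il6ra, a receptor chain for interleukin 6, was listed at 0 in Krt6a+ libraries and had 2.18, 1.31 and 5.51 in WAP+ libraries (limma, adjusted p = 0.213). It passed the filter only through the WAP+ libraries, so a difference was built into its selection. Tnf had 26.6 and 84.0 against 22.7, 3.63 and 8.28, and Hif1a 10.4 and 16.5 against 7.40, 1.40 and 4.52 (limma, adjusted p = 0.187 and 0.325). Il17a, Il22 and Csf2 were listed at 0 in all libraries.

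**Figure D5:**
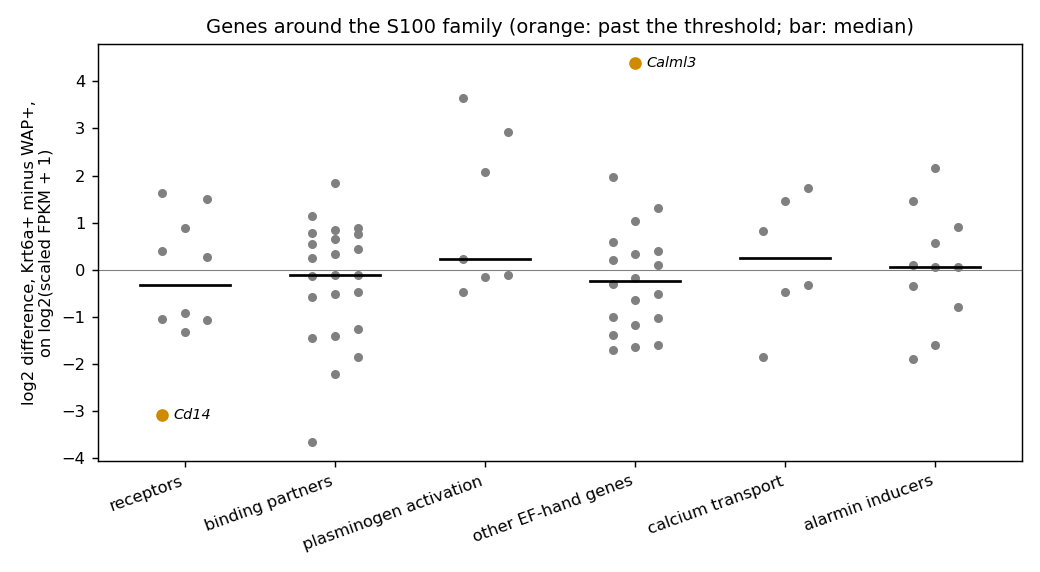
Log2 difference, Krt6a+ minus WAP+, of scaled FPKM with a pseudocount of 1 for each tested gene of 6 lists around the family; black bars are list medians. Cd14 among the receptors and Calml3 among the EF-hand genes passed the test over all genes, and the medians lay between -0.32 and 0.25.

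Markers of other cell types differed between single libraries. WAP+ library 1, the WAP+ library with the lowest S100a8, had the adipocyte and endothelial gene Fabp4 at FPKM 2188, against 65.8 and 20.3 in the other WAP+ pools and a listed 0 in both Krt6a+ pools. In that library the endothelial markers Emcn and Pecam1 had 15.1 and 4.82, and both were listed at 0 in the other WAP+ libraries. The summed endothelial list reached 23.9 there, against 0.0349 in the lowest WAP+ library and at most 0.744 in the Krt6a+ libraries. The adipocyte markers Adipoq, Plin1, Cidec, Lep and Cfd were at 0 in all libraries. Without WAP+ library 1 the log2 difference of S100a8 was -10.26. The Schwann cell list was led by Pmp22 (FPKM 327, 146, 51.2, 12.8 and 23.6 in library order), which epithelia also express. Its part in the S100 results was not tested. Of the epithelial keratins, Krt5 was higher in Krt6a+ libraries (limma, log2 4.02, adjusted p = 0.0275). Krt18, Krt19 and Krt8 had log2 differences of -2.54, -1.49 and -3.11 and did not pass (limma, adjusted p = 0.0607, 0.102 and 0.117). Krt14 and Krt7 had 2.14 and 0.53 and did not pass either (limma, adjusted p = 0.209 and 0.654). The part of these keratin differences in the S100 results was not tested.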

How the data were processed

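RNA from small sorted pools was amplified with the SMART-Seq low-input full-length kit and sequenced as paired reads of 100 bp, per the labels' protocols. TopHat and Cufflinks were used with mm10, per the submitters' processing notes; their versions: not given in the sources used. The deposited tables give FPKM per RefSeq transcript, normalized by the authors, with bounds of each FPKM and a coverage signal, per the file headers; the coverage was not used. Rows were matched by transcript, since their order differs between tables, and summed by symbol (34535 rows, 24347 symbols). Fragments were implied from interval widths, taken as 2 SD on each side. Of implied numbers under 200, 31.7% to 34.2% were whole to within 0.02, too few to recover read counts, so a count model was not used.

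Each library was scaled by its median ratio to the geometric means of the 5334 genes that every library held at FPKM 1 or above (factors 0.873 to 1.14). Tested genes reached FPKM 1 in at least 2 libraries. Log2(scaled FPKM + 1) was fitted with limma 3.58.1 in R 4.3.3 (mean-variance trend; degrees of freedom 3 residual, 4.87 prior), two-sided, Benjamini-Hochberg adjusted over all genes, threshold 0.05. A fold on this scale understates low genes. P-values measure only the spread between these libraries, which may be technical. The procedure was tested on simulated data. The members and the gene lists were chosen with earlier results of these data known. Named were all S100 genes, list genes past the threshold and up to 4 further per list by moderated statistic, markers at FPKM 1 or more, and 3 genes most like S100a8 and S100g. Other list genes (Tlr4, Ager, Anxa1, Anxa2, Cebpb and genes listed at 0) were named after their values were seen. Some genes of the lists are not reported here.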

Additional observations from a re-analysis of the deposited data

How the results depend on the processing

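Over all genes, 25 were higher and 42 lower in Krt6a+ libraries. The numbers higher and lower were 6 and 20 (pseudocount 0.1), 41 and 31 (pseudocount 5), 2 and 3 with no filter, 71 and 92 with a filter of FPKM 5, 23 and 27 with no scaling, 39 and 39 with quantile normalization, 7 and 9 with no mean-variance trend, 32 and 43 when only the highest transcript counted, and 15 and 19 with the replicate block. Leaving out 1 library at a time gave 2 to 44 higher and 3 to 103 lower; the low ends came without a WAP+ library (2 and 4, 2 and 3, 2 and 4), and there were 10 and 56 without Krt6a+ library 2 and 44 and 103 without library 3. Of the members, the number lower was 1 in every setting, S100a8, a description since the members were chosen with this contrast known. The number higher, 1 (S100g), was 0 with no filter and 0 to 0 when any 1 library was left out, where fewer libraries were fitted. Of the receptor, partner and setting lists, 1 gene was higher (Calml3) and 1 lower (Cd14). The number higher was 0 with a pseudocount of 0.1, no filter, no mean-variance trend or the replicate block, and 0 to 0 when 1 library was left out. The number lower was 0 with no filter and no mean-variance trend, and 0 to 2 when 1 library was left out. The log2 difference of Plat, -0.47, turned to 0.13 with a pseudocount of 5 and to 1.92 without Krt6a+ library 2; the range when 1 library was left out was -2.82 to 1.92. For S100a9, listed at 0 in Krt6a+ libraries, the fitted difference of -4.66 was -7.90 with a pseudocount of 0.1 and -2.65 with 5, and for S100g 7.23 was 10.54 and 4.96. The cause of the other changes was not tested.

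The labels do not say that a replicate number marks a shared animal, day or batch, and only the numbers 2 and 3 occur in both populations. Across tested genes the deviations of the libraries numbered 2 from their pair means correlated at 0.0286, a single value over 2 pairs, and the numbers were not taken to pair the libraries. With the replicate block the log2 difference of S100a8 was -10.25.

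Intervals and implied fragments cover counting error only. S100a8 in Krt6a+ libraries rested on 5 and 2 fragments, so the size of its difference is imprecise while its direction did not change in any setting run. With 2 and 3 libraries an adjusted p above the threshold does not show that a member did not differ.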
